A study of Mus musculus with 6 samples.

Results

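The Wnt and Notch pathway genes described here are 78 of the 18193 genes measured in kidney epithelium of Fh1 knockout mice and wild-type littermates. They were taken by symbol from the platform annotation: the Wnt ligands, Fzd receptors, Dkk and Sfrp inhibitors, Axin, Dvl and Tcf7 genes, the Notch receptors, the Jag and Dll ligands, the Hes and Hey genes, and 13 genes named singly, from Lef1 to Nkd1. Sorted by function, 56 belong to the Wnt pathway and 19 to the Notch pathway. The other 3, Dkkl1, Fzd10os and Jagn1, share only the start of their symbol with the families and are described apart. Each gene was read by its brightest probe set, judged by the mean of the 6 arrays, and 48 of the 78 had more than 1 probe set.

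The tested mice were Fh1 knockouts, from which cystic renal epithelium was macro-dissected (3 samples). They were compared with renal epithelium of wild-type, disease-free littermates of matched sex (3 samples). Fh1 encodes fumarate hydratase, the enzyme that turns fumarate into malate. The sources used here do not state the strain, the age, the Fh1 allele or any Cre driver. Nor do they state that the 3 samples of a group were 3 animals, and p-values therefore cover the spread between these samples, which may be technical. The comparison asks how expression in the cystic tissue differs from that of disease-free kidney.

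Wnt ligands are secreted lipid-modified proteins that bind Frizzled receptors, with the co-receptors Lrp5 and Lrp6, and either stabilise beta-catenin, which acts with Tcf and Lef factors in the nucleus, or signal to the cytoskeleton and cell polarity without it. Notch receptors are activated by Jagged and Delta-like ligands on neighbouring cells. Their cleaved intracellular part joins the DNA-binding protein Rbpj to switch on some Hes and Hey repressors. Both pathways pattern the developing nephron, and both are known to become active again in injured kidney.

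Values are RMA expression values, which are on the log2 scale and carry no detection call. Fh1 itself read 11.54, 11.60 and 11.61 in knockout samples and 12.41, 12.34 and 12.22 in wild-type samples, a log2 fold change (knockout over wild-type) of -0.74 (SE 0.08, adjusted p = 0.000396). All 6 measured markers of kidney epithelium, such as Cdh16 and Epcam, had means of 9.90 or higher, against 7.37 for the median gene. At an adjusted p under 0.05, 49.2% of all genes were called, 21.6% higher and 27.7% lower in the knockout. The groups did not overlap for 62.9% of all genes. Calls depended on signal. Among genes below the median signal 11.7% were higher and 30.5% lower, 42.2% in all, with a median log2 fold change of -0.19. Among genes at or above it 31.4% were higher and 24.8% lower, 56.3% in all, with a median of 0.05. Why dim genes lean lower was not tested.

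In both pathways a few well-expressed genes were higher in the knockout and many dim genes were slightly lower, a split by signal that all genes showed too. Of the 56 Wnt members, 7 were higher, 18 lower and 31 not called, or 44.6% called. Of the 19 Notch members, 4 were higher, 9 lower and 6 not called, or 68.4% called. The median log2 fold change was -0.23 for Wnt and -0.22 for Notch members, against -0.11 for all genes. In both pathways the higher calls were mostly of brighter genes: 6 of 19 Wnt and 4 of 7 Notch members at or above the median signal were higher, and 4 and 1 lower, beside 31.4% higher and 24.8% lower among all genes of that signal. Below the median signal 1 of 37 Wnt members was higher and 14 lower, beside 11.7% and 30.5% among all dim genes. None of the 12 dim Notch members was higher by limma, also at an unadjusted p under 0.05, and 8 were lower. Called changes of at least 2-fold numbered 2 higher and 1 lower in the Wnt pathway and 1 higher and 0 lower in the Notch pathway, against 5.44% higher and 3.39% lower over all genes. The groups did not overlap for 33 Wnt and 14 Notch members, or 58.9% and 73.7%, against 62.9% of all genes. The plot of change against signal shows the split by signal.

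**Figure D1:**
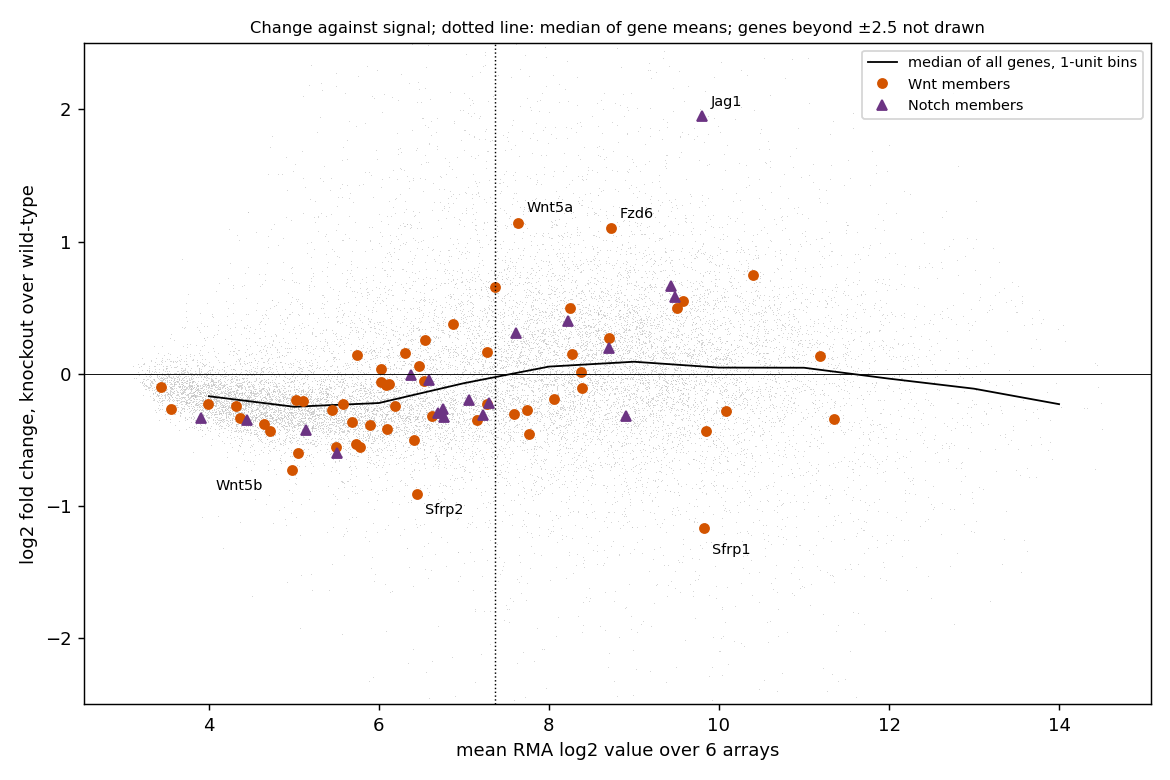
Log2 fold change (knockout over wild-type) against the mean RMA log2 value over 6 arrays for all genes (grey), Wnt members (circles) and Notch members (triangles), with the median of all genes in bins of 1 log2 unit (line). The line lies below 0 for dim genes, where most members lie, while Jag1, Wnt5a and Fzd6 stand above it and Sfrp1 and Sfrp2 below.

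Calls were also set against fits on 5 arrays. Of the higher calls, 5 of 7 in the Wnt and 4 of 4 in the Notch pathway held in each of the 6 fits that left out 1 array, against 72.7% over all genes. Of the lower calls, 9 of 18 in the Wnt and 1 of 9 in the Notch pathway held in all 6 fits, against 54.2% over all genes. Without knockout 1 the lower members numbered 11 in the Wnt and 1 in the Notch pathway, and over all genes 3160 were lower, against 5031 with all 6 arrays. The lower Notch members numbered 5 without knockout 2 and 3 without knockout 3.

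**Figure D2:**
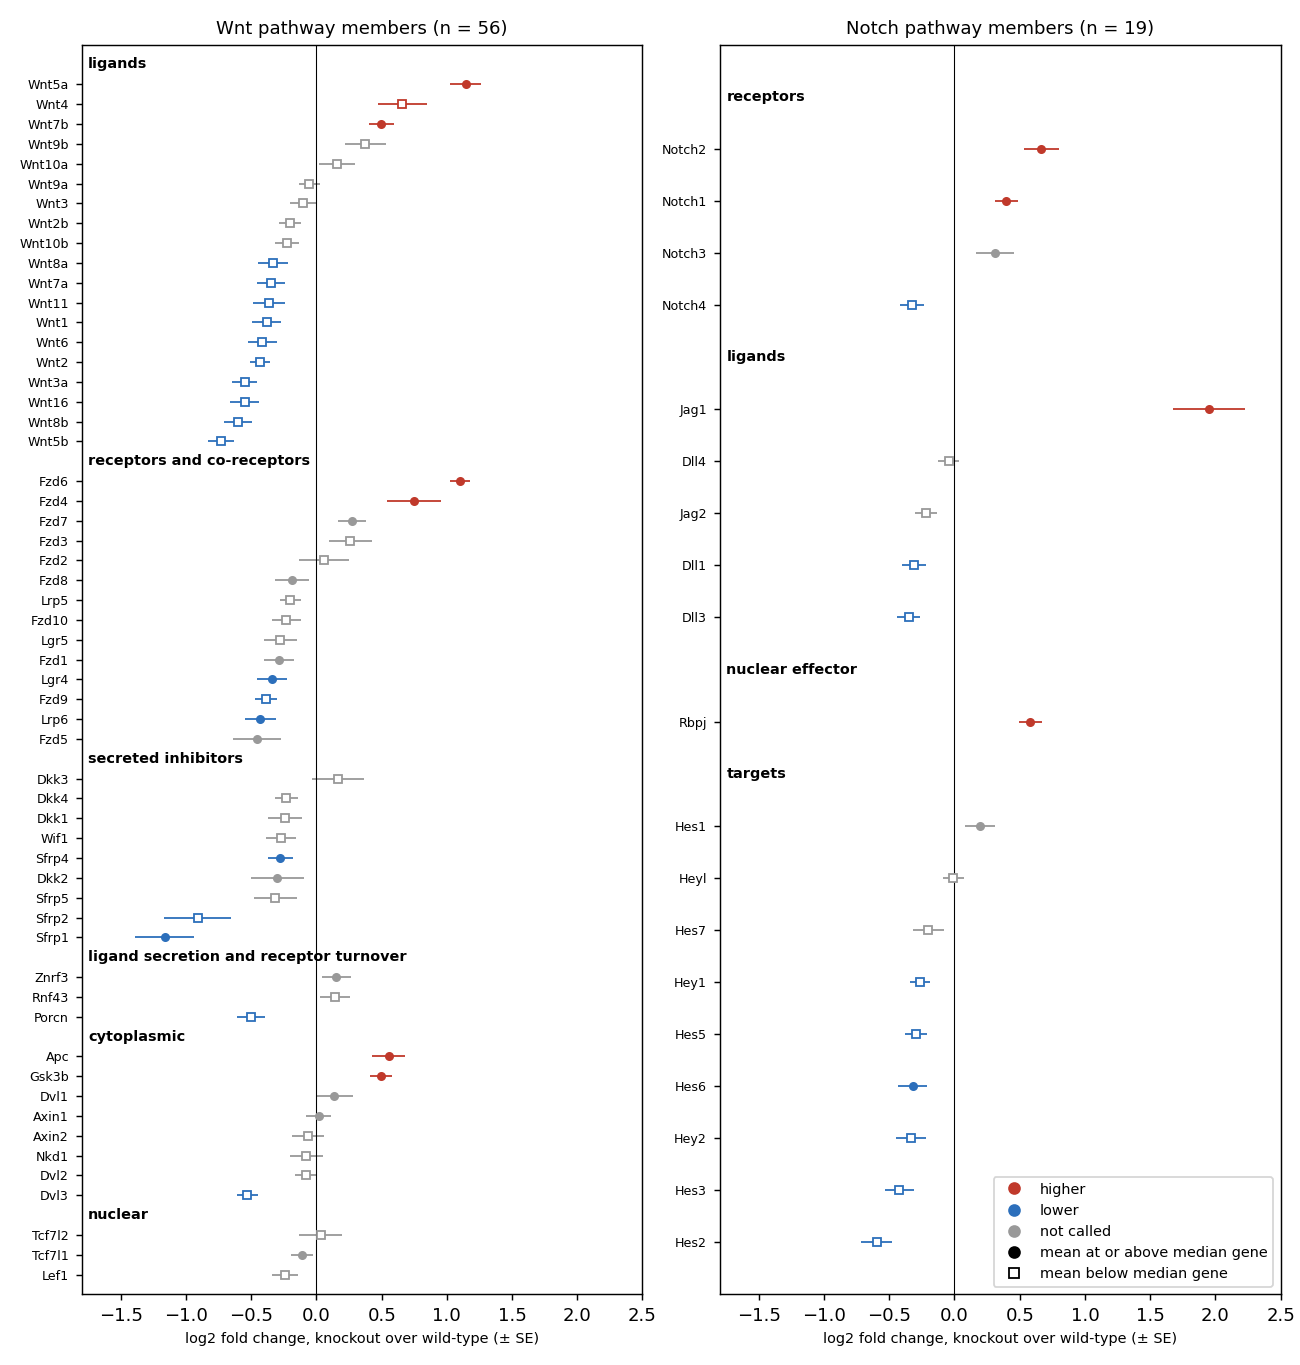
Log2 fold change with SE (knockout over wild-type, n = 3 and 3) of the 56 Wnt and 19 Notch members by role. The role named targets holds all measured Hes and Hey genes. Filled circles are genes at or above the median signal and open squares genes below it. Higher calls (red) are mostly filled and lower calls (blue) mostly open.

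Among the 19 Wnt ligands, 3 were higher, 10 lower and 6 not called, beside 21.6% higher and 27.7% lower over all genes. Of the 17 dim ligands 1 was higher and 10 lower, beside 11.7% and 30.5% of all dim genes. Wnt5a, a ligand that mostly signals without beta-catenin, had the largest rise. It read 8.23, 8.21 and 8.20 in knockout samples and 7.11, 7.27 and 6.82 in wild-type samples. The knockout values were nearly the same and all above the wild-type ones. The rise was 2.21-fold (log2 fold change 1.14, SE 0.12, adjusted p = 0.000279), and 3 of the 4 Wnt5a probe sets were higher, with 0.58 for the mean of all (adjusted p = 0.00116). Wnt4, which drives the conversion of mesenchyme to epithelium in the developing nephron, read 7.54, 7.86 and 7.70 in knockout samples and 7.24, 7.29 and 6.59 in wild-type samples. The groups did not overlap, and wild-type 3 was the low value. The log2 fold change was 0.66 (SE 0.19, adjusted p = 0.0231), and the call ended without knockout 2 (0.58, adjusted p = 0.0785) or knockout 3 (0.66, adjusted p = 0.0623). The mean of both Wnt4 probe sets gave 0.42 (adjusted p = 0.0157). Wnt7b, a ligand made by the ureteric bud and collecting duct, rose 1.41-fold (log2 fold change 0.50, SE 0.09, adjusted p = 0.00400), with 8.42, 8.66 and 8.42 in knockout samples against no wild-type value above 8.03. Its other, dimmer probe set was not called (log2 fold change 0.14, adjusted p = 0.427), and there the groups overlapped.

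The 10 ligands called lower by their brightest probe set were all dim, with log2 fold changes of -0.73 to -0.33. They include Wnt7a (-0.35), whose second probe set was called higher (1.32), so its direction is uncertain. Wnt5b, the close relative of Wnt5a, fell most. It read 4.53, 4.57 and 4.75 in knockout samples and 5.30, 5.50 and 5.25 in wild-type samples, near the lower quartiles of the arrays (4.62 to 4.77). The groups did not overlap, and the fall was 1.66-fold (log2 fold change -0.73, SE 0.10, adjusted p = 0.00104). Wnt8b read 4.76, 4.94 and 4.55 in knockout samples and 5.36, 5.31 and 5.39 in wild-type samples (log2 fold change -0.60, adjusted p = 0.00365). Wnt16 read 5.47, 5.50 and 5.52 in knockout samples and 5.85, 6.04 and 6.26 in wild-type samples (log2 fold change -0.55, adjusted p = 0.00623). Every knockout value of both lay below every wild-type value. Wnt3a, a classical activator of beta-catenin, read 5.25, 5.29 and 5.14 in knockout samples and 5.86, 5.63 and 5.84 in wild-type samples (log2 fold change -0.55, adjusted p = 0.00288). These 4 ligands all lay in the dim range where lower calls outnumber higher ones over the whole table.

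Of the 14 Wnt receptors and co-receptors, 2 were higher and 3 lower. In all 35.7% were called, against 49.2% of all genes. Fzd6, a Frizzled receptor of the planar polarity branch, read 9.29, 9.31 and 9.26 in knockout samples and 8.16, 8.25 and 8.14 in wild-type samples. Both groups were tight and lay more than 1 log2 unit apart. The rise was 2.14-fold (log2 fold change 1.10, SE 0.08, adjusted p = 5.27e-05), the smallest adjusted p among the members. A dim probe set among its 3 was called lower (-0.32), and the mean of all gave 0.39 (adjusted p = 0.00589). Fzd4, a receptor also known from blood vessels, read 10.67, 10.65 and 11.02 in knockout samples and 9.94, 10.48 and 9.67 in wild-type samples. Wild-type 2 came close to the knockout range. The log2 fold change was 0.75 (SE 0.21, adjusted p = 0.0200), and the call ended without knockout 3 (0.63, adjusted p = 0.0696), wild-type 1 (0.70, adjusted p = 0.0561) or wild-type 3 (0.57, adjusted p = 0.0513). The other two probe sets of Fzd4 had log2 fold changes of -0.03 and -0.31 and were not called, and over the mean of its probe sets Fzd4 read 0.14 (adjusted p = 0.480).

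Lrp6, the co-receptor of the beta-catenin branch, was the most changed of the lower receptors. It read 9.76, 9.53 and 9.61 in knockout samples and 10.02, 9.89 and 10.28 in wild-type samples, with no overlap. The log2 fold change was -0.43 (SE 0.12, adjusted p = 0.0211), and the call ended without knockout 2 (-0.38, adjusted p = 0.0744) and without knockout 3 (-0.42, adjusted p = 0.0640). Its other probe set had a log2 fold change of 0.06 and was not called, and the mean of both gave -0.19 (adjusted p = 0.260). Fzd9 (log2 fold change -0.39) and Lgr4, a receptor for R-spondins (-0.34), were the other lower receptors. The Fzd9 call held without any 1 array. The Lgr4 call held only without wild-type 3, and with another array left out the adjusted p was 0.0555 to 0.125 (log2 fold changes of -0.37 to -0.23).

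The secreted inhibitors bind Wnt ligands or Lrp5 and Lrp6. Of 9 measured, 3 were lower, a share near the 27.7% of all genes, and limma called 0 higher, also at an unadjusted p under 0.05. Sfrp1, a decoy with a Frizzled-like domain, read 8.89, 9.02 and 9.80 in knockout samples and 10.35, 10.27 and 10.60 in wild-type samples. Knockout 3 was the highest of its group and still below all wild-type values. The fall was 2.24-fold (log2 fold change -1.16, SE 0.23, adjusted p = 0.00506), and 4 of the 5 Sfrp1 probe sets were lower, by log2 fold changes of -1.84 to -1.12. Its relative Sfrp2 averaged 5.99 ± 0.36 in knockout and 6.90 ± 0.47 in wild-type samples (SD, n = 3 each; log2 fold change -0.91, adjusted p = 0.0217). Knockout 3 and wild-type 1 overlapped for Sfrp2, and the call ended without knockout 1 (-0.78, adjusted p = 0.0747), knockout 2 (-0.83, adjusted p = 0.0721) or wild-type 3 (-0.85, adjusted p = 0.0649). Sfrp4 was the last lower member (-0.28, adjusted p = 0.0470). Its call ended without knockout 1 (-0.23, adjusted p = 0.154), knockout 3 (-0.25, adjusted p = 0.139), wild-type 1 (-0.26, adjusted p = 0.105) or wild-type 3 (-0.25, adjusted p = 0.0952), and with every probe set tested (adjusted p = 0.0526). The Dkk genes and Wif1 were not called.

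Of the 8 cytoplasmic members, 2 were higher and 1 lower, or 37.5% called, against 49.2% of all genes. Apc, a scaffold of the complex that marks beta-catenin for destruction, averaged 9.85 ± 0.05 in knockout and 9.30 ± 0.25 in wild-type samples (SD, n = 3 each). Its rise was 1.47-fold (log2 fold change 0.55, SE 0.13, adjusted p = 0.0106), with no overlap of the groups. A second Apc probe set was higher (0.31) and the others were not called (0.24 and -0.10), and the mean of all gave 0.25 (adjusted p = 0.0172). Gsk3b, the kinase of the same complex, read 9.81, 9.73 and 9.71 in knockout samples and 9.28, 9.32 and 9.16 in wild-type samples. It rose 1.41-fold (adjusted p = 0.00247), and 5 of its 6 probe sets were higher, the others of these by log2 fold changes of 0.71 to 1.33. Dvl3, which carries the signal from Frizzled receptors, read 5.46, 5.54 and 5.39 in knockout samples and 5.99, 5.95 and 6.04 in wild-type samples (log2 fold change -0.53, SE 0.08, adjusted p = 0.00155). It fell with no overlap of the groups and had 1 probe set.

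Of the 3 members for ligand secretion and receptor turnover, 1 was lower and none higher by limma, also at an unadjusted p under 0.05. Over all genes 27.7% were called lower and 21.6% higher. Rnf43 and Znrf3, ubiquitin ligases that remove Frizzled receptors, were not called (log2 fold changes of 0.14 and 0.15). Porcn, the enzyme that attaches the lipid to Wnt ligands, read 6.12, 6.09 and 6.28 in knockout samples and 6.53, 6.62 and 6.85 in wild-type samples (log2 fold change -0.50, SE 0.11, adjusted p = 0.00737). The groups did not overlap, and Porcn had 1 probe set.

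The 4 feedback genes singled out on the Wnt side, which beta-catenin signalling can induce, were not called in their brightest probe sets. Axin2, the scaffold most used as its readout, read 6.12, 5.91 and 5.93 in knockout samples and 5.87, 6.02 and 6.27 in wild-type samples. The groups overlapped, with a log2 fold change of -0.06 (95% interval -0.35 to 0.22, adjusted p = 0.676). A second, dimmer Axin2 probe set was called lower (log2 fold change -0.28, adjusted p = 0.0455). Nkd1, an inhibitor of Dvl, averaged 6.08 ± 0.18 in knockout and 6.16 ± 0.18 in wild-type samples (SD, n = 3 each; log2 fold change -0.08, 95% interval -0.37 to 0.22). Lgr5, an R-spondin receptor and stem cell marker, averaged 5.31 ± 0.11 in knockout and 5.59 ± 0.23 in wild-type samples (log2 fold change -0.28, 95% interval -0.57 to 0.02). Lef1, a nuclear partner of beta-catenin, read 6.02, 6.12 and 6.06 in knockout samples and 6.13, 6.45 and 6.35 in wild-type samples (log2 fold change -0.24, 95% interval -0.48 to -0.01, adjusted p = 0.0763). All 4 lay below the median signal. Each interval is unadjusted and covers 1 probe set with 3 samples per group, so it does not bound the change of the gene. Lef1 was called lower without wild-type 1 (-0.33, adjusted p = 0.0253) and Lgr5 without wild-type 2 (-0.41, adjusted p = 0.0141). None of the 3 nuclear members, Lef1, Tcf7l1 and Tcf7l2, was called by limma in its brightest probe set, against 49.2% of all genes. At an unadjusted p under 0.05, 1 was lower. A second Tcf7l1 probe set was called higher (log2 fold change 0.51, adjusted p = 0.0292), as were 2 of Tcf7l2 (0.71 and 0.35). No probe set of the 3 nuclear members was called lower.

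**Figure D3:**
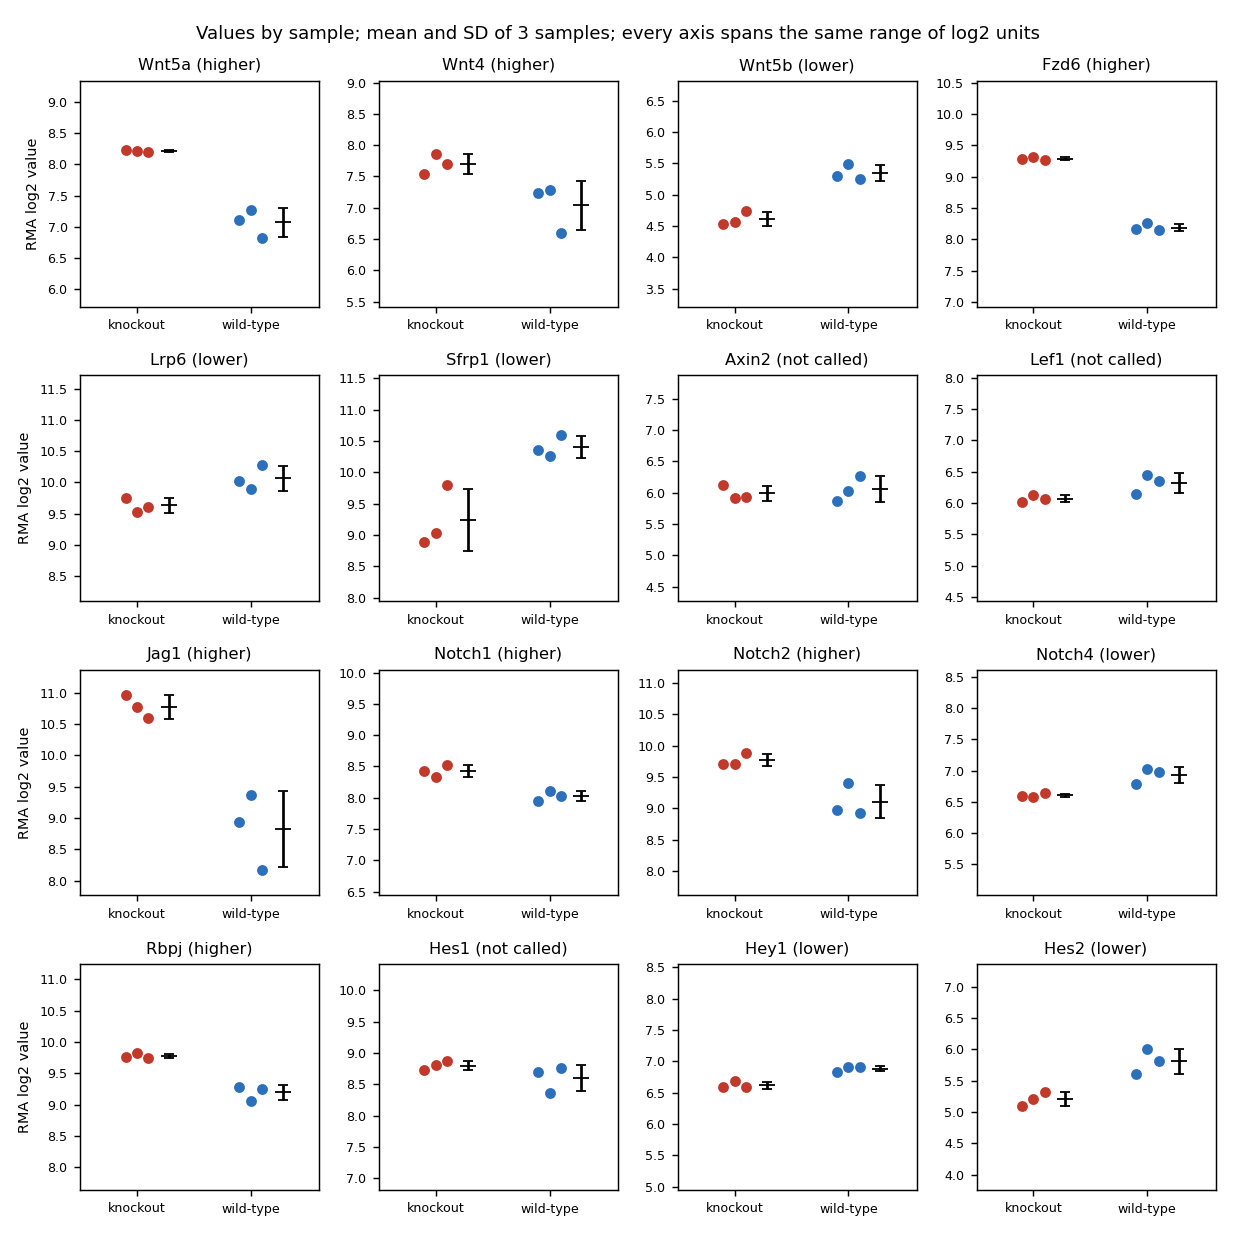
RMA log2 values of 16 members in 3 knockout (red) and 3 wild-type (blue) samples, with mean and SD (black); all vertical axes span the same range of log2 units. The groups stand clear of each other for Wnt5a, Fzd6, Sfrp1 and Jag1 and overlap for Axin2 and Hes1.

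On the Notch side, the ligand Jag1 had the largest change of all members. It read 10.96, 10.76 and 10.59 in knockout samples and 8.93, 9.37 and 8.16 in wild-type samples. Wild-type samples spread over more than 1 log2 unit and still lay below every knockout sample. The rise was 3.86-fold (log2 fold change 1.95, SE 0.28, adjusted p = 0.00115), and 1.62 to 2.22 with any 1 array left out. A second Jag1 probe set gave a log2 fold change of 1.91 and the remaining one 0.04. Of the other ligands none was called higher: Dll1 and Dll3 were lower, and Dll4 and Jag2 were not called. Over all genes 21.6% were higher and 27.7% lower. Dll3 read 4.19, 4.33 and 4.30 in knockout samples and 4.74, 4.56 and 4.57 in wild-type samples, again near the lower quartiles of the arrays (log2 fold change -0.35, adjusted p = 0.0141). The Dll3 call ended without knockout 1 (-0.31, adjusted p = 0.0600) and after quantile normalisation (-0.17, adjusted p = 0.168). The Dll1 call (-0.31, adjusted p = 0.0257) ended without knockout 1 (-0.33, adjusted p = 0.0613), knockout 3 (-0.24, adjusted p = 0.0915) or wild-type 1 (-0.29, adjusted p = 0.0647).

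Of the 4 Notch receptors, Notch1 and Notch2 were higher, Notch4 was lower and Notch3 was not called, beside 21.6% higher and 27.7% lower over all genes. Notch2, the receptor needed for proximal nephron formation in mice, read 9.72, 9.71 and 9.89 in knockout samples and 8.98, 9.40 and 8.93 in wild-type samples. No knockout value overlapped, and the log2 fold change was 0.67 (SE 0.14, adjusted p = 0.00609). The second Notch2 probe set was called in the opposite direction (log2 fold change -0.41, adjusted p = 0.00810), so the direction for the gene is uncertain, and the mean of both gave 0.13 (adjusted p = 0.174). Notch1 read 8.42, 8.33 and 8.53 in knockout samples and 7.95, 8.11 and 8.03 in wild-type samples (log2 fold change 0.40, SE 0.09, adjusted p = 0.00889). Its second probe set was not called (log2 fold change -0.23), and the mean of both gave 0.08 (adjusted p = 0.426). Notch4, a receptor of endothelial cells, read 6.59, 6.58 and 6.64 in knockout samples and 6.78, 7.03 and 6.97 in wild-type samples (log2 fold change -0.32, SE 0.09, adjusted p = 0.0212). Its call ended without wild-type 2 (-0.27, adjusted p = 0.0525) or any 1 knockout sample (-0.32, -0.31 and -0.34, adjusted p = 0.0690, 0.0669 and 0.0534). Of 15 endothelial markers, 8 were lower and 2 higher, against 27.7% and 21.6% of all genes. Their summed level on the linear scale was 5279 to 6069 in knockout and 7321 to 8650 in wild-type samples. The part of that shift in Notch4 was not tested, and in bulk tissue fewer cells of a type cannot be told apart from less RNA per cell.

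Rbpj, the DNA-binding partner of all Notch receptors, read 9.76, 9.82 and 9.75 in knockout samples and 9.28, 9.06 and 9.25 in wild-type samples. The knockout values lay close together and above all wild-type values. Its rise was 1.49-fold (log2 fold change 0.58, SE 0.09, adjusted p = 0.00164), and 2 of 3 probe sets were higher.

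No Hes or Hey gene was called higher. Of 9 measured, limma called 0 higher, also at an unadjusted p under 0.05, and 6 lower, all by less than 1 log2 unit. Over all genes 21.6% were higher and 27.7% lower. Of the 7 below the median signal 5 were lower, beside 30.5% of all dim genes. Only Hes1 and Hes6 of these genes lay above the median signal. Hes1, the main Notch target in many tissues, read 8.73, 8.80 and 8.87 in knockout samples and 8.69, 8.36 and 8.76 in wild-type samples. Knockout 1 lay below wild-type 3, and the log2 fold change was 0.20 (95% interval -0.08 to 0.47, adjusted p = 0.193). Heyl averaged 6.37 ± 0.02 in knockout and 6.38 ± 0.09 in wild-type samples (SD, n = 3 each; log2 fold change -0.01, 95% interval -0.20 to 0.18), while another of its probe sets was higher (log2 fold change 0.45, adjusted p = 0.0205). Hey1 read 6.58, 6.68 and 6.59 in knockout samples and 6.84, 6.91 and 6.90 in wild-type samples. The groups did not overlap (log2 fold change -0.27, SE 0.08, adjusted p = 0.0243), and the call ended without knockout 1 (-0.25, adjusted p = 0.0874), knockout 3 (-0.25, adjusted p = 0.0823) or wild-type 2 (-0.25, adjusted p = 0.0530).

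The other lower Hes and Hey genes were Hes2, Hes3, Hes5, Hes6 and Hey2. They were grouped by symbol, and whether Notch drives each of them in this tissue was not tested. Hes2 read 5.10, 5.21 and 5.32 in knockout samples and 5.61, 6.01 and 5.81 in wild-type samples (log2 fold change -0.60, SE 0.12, adjusted p = 0.00547). Of the lower Notch members, Hes2 alone kept its call without any 1 array. Hes3 read 4.75, 5.06 and 4.96 in knockout samples and 5.48, 5.26 and 5.31 in wild-type samples (log2 fold change -0.42, adjusted p = 0.0154). The Hes3 call ended without knockout 1 (-0.34, adjusted p = 0.0568) and after quantile normalisation (-0.25, adjusted p = 0.0971). Hey2, a target best known from heart and vessels, read 3.71, 3.78 and 3.73 in knockout samples and 4.31, 3.99 and 3.93 in wild-type samples, among the dimmest members. Its log2 fold change was -0.33 (adjusted p = 0.0407). The call ended without wild-type 1 (-0.22, adjusted p = 0.0791) or any 1 knockout sample (-0.32, -0.35 and -0.33, adjusted p = 0.114, 0.0830 and 0.103), and after quantile normalisation (-0.19, adjusted p = 0.214). Hes5 averaged 6.55 ± 0.04 in knockout and 6.84 ± 0.09 in wild-type samples (SD, n = 3 each; adjusted p = 0.0212), and its call ended without any 1 knockout sample (log2 fold changes of -0.30, -0.27 and -0.31, adjusted p = 0.0652, 0.0724 and 0.0532). The Hes6 call (-0.32, adjusted p = 0.0434) held only without wild-type 2, and with another array left out the adjusted p was 0.0664 to 0.114 (log2 fold changes of -0.34 to -0.21). The other Hes6 probe set was also called lower (log2 fold change -0.64, adjusted p = 0.0196), with no overlap of the groups.

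Promoters are shown as examples only for 4 Notch members: Jag1 and Rbpj, which rose, and the targets Hey2 and Hes5, which were lower. Each is 250 bases before to 50 after the RefSeq start (GRCm38.p6), 5′ to 3′ on the gene's strand, and RefSeq promoters were matched for 53 of the 78 genes. They lie at chr2:137116471-137116770 (minus strand) for Jag1, chr5:53590096-53590395 (plus, the first of 2 listed) for Rbpj, chr10:30842734-30843033 (minus) for Hey2 and chr4:154960673-154960972 (plus) for Hes5. Capitals mark the RBPJ core TGGGAA or the TCF and LEF core CTTTGA on either strand (TTCCCA and TCAAAG on the other), which do not overlap in these windows.
Jag1: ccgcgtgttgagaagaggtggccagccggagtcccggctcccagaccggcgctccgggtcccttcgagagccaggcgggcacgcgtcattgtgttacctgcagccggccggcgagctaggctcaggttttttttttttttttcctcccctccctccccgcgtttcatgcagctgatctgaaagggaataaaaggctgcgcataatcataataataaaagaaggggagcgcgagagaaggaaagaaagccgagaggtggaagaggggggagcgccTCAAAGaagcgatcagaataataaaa
Rbpj: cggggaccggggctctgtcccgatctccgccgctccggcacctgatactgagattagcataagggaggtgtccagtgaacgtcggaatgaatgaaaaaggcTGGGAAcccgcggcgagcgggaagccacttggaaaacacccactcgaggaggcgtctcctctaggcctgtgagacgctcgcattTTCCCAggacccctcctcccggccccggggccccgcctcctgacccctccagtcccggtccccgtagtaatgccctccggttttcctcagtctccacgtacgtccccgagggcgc
Hey2: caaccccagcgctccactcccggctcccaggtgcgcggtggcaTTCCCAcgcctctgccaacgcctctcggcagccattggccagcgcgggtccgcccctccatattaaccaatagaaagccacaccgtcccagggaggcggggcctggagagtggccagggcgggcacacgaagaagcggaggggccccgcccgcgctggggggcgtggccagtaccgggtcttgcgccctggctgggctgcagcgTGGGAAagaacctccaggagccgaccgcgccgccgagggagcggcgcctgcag
Hes5: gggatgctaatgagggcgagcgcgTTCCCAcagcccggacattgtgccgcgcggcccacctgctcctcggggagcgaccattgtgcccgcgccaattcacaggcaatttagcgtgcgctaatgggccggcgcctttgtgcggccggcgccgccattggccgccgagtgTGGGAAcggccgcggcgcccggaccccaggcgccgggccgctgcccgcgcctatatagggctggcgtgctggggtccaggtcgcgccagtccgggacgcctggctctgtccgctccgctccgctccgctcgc
The RBPJ core stood once on each strand in the Rbpj, Hey2 and Hes5 windows, and the TCF and LEF core once in that of Jag1. The RBPJ core was in 25.6% of all 32851 RefSeq promoters of this length, in 5 of 17 promoters of Notch members and in 8 of 45 of Wnt members. The TCF and LEF core was in 16.0% of all promoters, in 1 of 17 of Notch members and in 6 of 45 of Wnt members. Rbpj rose and Hey2 and Hes5 were lower, though the calls of Hey2 and Hes5 ended with some arrays left out. Whether these letters go with a direction of change was not tested.

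Probe sets of a gene often disagreed. With all 45037 probe sets tested together, Notch2, Fzd6 and Wnt7a had probe sets called in opposite directions. Fzd6 had its 2 dimmer probe sets at log2 fold changes of 0.38 (not called) and -0.32 (adjusted p = 0.0207). Wnt7a, a ligand of the female reproductive tract and nervous system, was lower in its brightest probe set (log2 fold change -0.35) and higher in the next (log2 fold change 1.32, adjusted p = 0.000242), so no direction is given for it. Tcf7l2, a nuclear partner of beta-catenin, was not called in its brightest probe set (0.03) and higher in 2 others (0.71 and 0.35). Sfrp1, Gsk3b, Wnt5a and Rbpj had no probe set called against their direction.

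**Figure D4:**
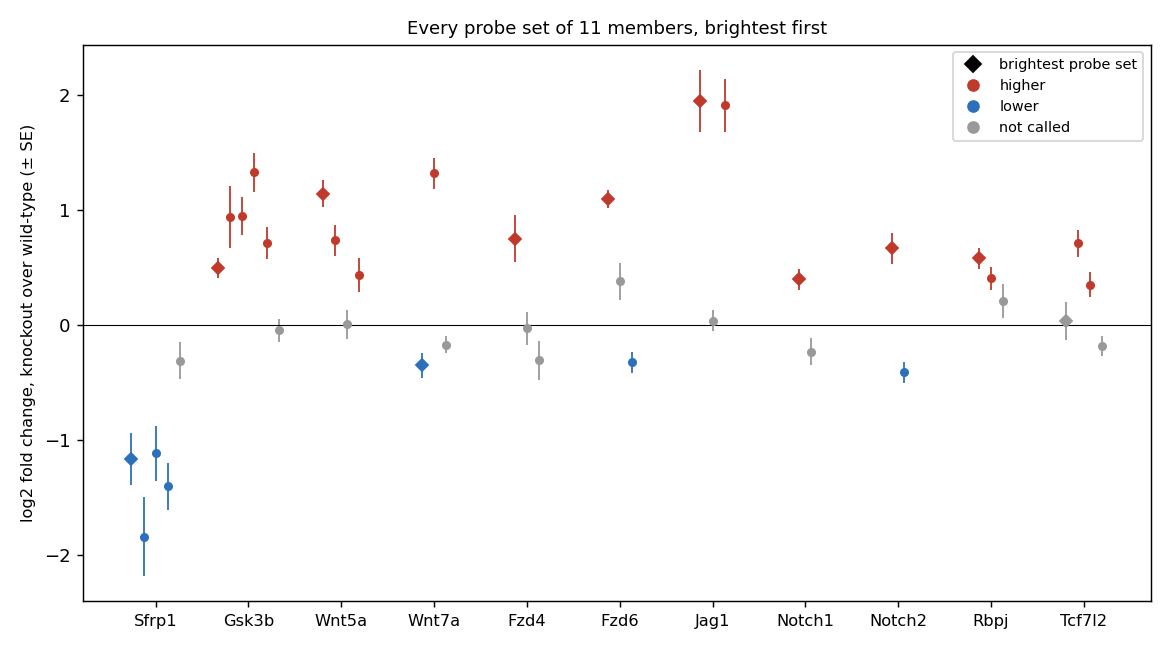
Log2 fold change with SE (knockout over wild-type) of every probe set of 11 members, brightest (diamond) first, coloured by the call over all probe sets. Most Sfrp1 and Gsk3b probe sets fall on the same side, while those of Wnt7a, Fzd6 and Notch2 fall on both sides of 0.

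Other genes of the Wnt pathway were described from a list of 45 partners, of which 44 were measured. Of these, 13 were higher and 7 lower, with a median log2 fold change of 0.04. In all 45.5% were called, near the 49.2% of all genes. Gpc3, a cell-surface proteoglycan that binds Wnt ligands, rose 4.12-fold (9.80 ± 0.12 in knockout and 7.75 ± 0.53 in wild-type samples, SD, n = 3 each; adjusted p = 0.000442). Nkd2, an inhibitor of Dvl, rose 2.04-fold, and Apcdd1, a membrane inhibitor of Wnt signalling, had a log2 fold change of 0.91 with overlapping groups (adjusted p = 0.0343). Notum, the secreted enzyme that strips the lipid from Wnt ligands, fell 2.82-fold (6.71 ± 0.15 in knockout and 8.20 ± 0.33 in wild-type samples; adjusted p = 0.000370). Btrc, the ubiquitin ligase subunit for beta-catenin, fell 1.75-fold and the proteoglycan Gpc4 1.69-fold. The count of higher partners was 6 without knockout 2, 6 without knockout 3 and 8 without wild-type 3.

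Of 16 genes known as targets of beta-catenin in some tissues, 7 were higher and 2 lower. In all 56.2% were called, against 49.2% of all genes, of which 21.6% were higher and 27.7% lower. Cd44, a hyaluronan receptor, had a log2 fold change of 4.05, Sox9, a transcription factor of repairing tubules, rose 5.29-fold and Plaur, the urokinase receptor, 4.13-fold. Sp5, a transcription factor induced by Wnt signalling, fell 1.97-fold (6.80 in knockout, and 7.78 ± 0.29 in wild-type samples, SD, n = 3; adjusted p = 0.00126), and Fgf20 fell 1.20-fold. Several of these genes answer to other pathways, and Cd44 and Plaur are also made by leukocytes. Of 13 immune markers 11 were higher and none lower by limma, also at an unadjusted p under 0.05, with a summed linear level of 11658 to 15736 in knockout and 4854 to 6346 in wild-type samples. Its part in these genes was not tested.

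The list of 36 Notch partners gave 32 measured genes, of which 7 were higher and 4 lower. In all 34.4% were called, against 49.2% of all genes, and the median log2 fold change was -0.01. Both proteases that cut the receptor at the cell surface rose: Adam10 by 1.73-fold (11.30 ± 0.04 in knockout and 10.51 ± 0.19 in wild-type samples, SD, n = 3 each; adjusted p = 0.000960) and Adam17 by 1.55-fold (adjusted p = 0.000786). Dtx4, a Deltex ubiquitin ligase, rose 1.81-fold. Rfng, a Fringe enzyme that adds sugar to Notch, fell 1.71-fold (8.44 ± 0.08 in knockout and 9.21 ± 0.12 in wild-type samples; adjusted p = 0.000557). Dlk2 fell 1.35-fold and Dner 1.21-fold. Nrarp, a feedback gene induced by Notch that is singled out here with its value known, was not called (log2 fold change -0.06, adjusted p = 0.593).

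**Figure D5:**
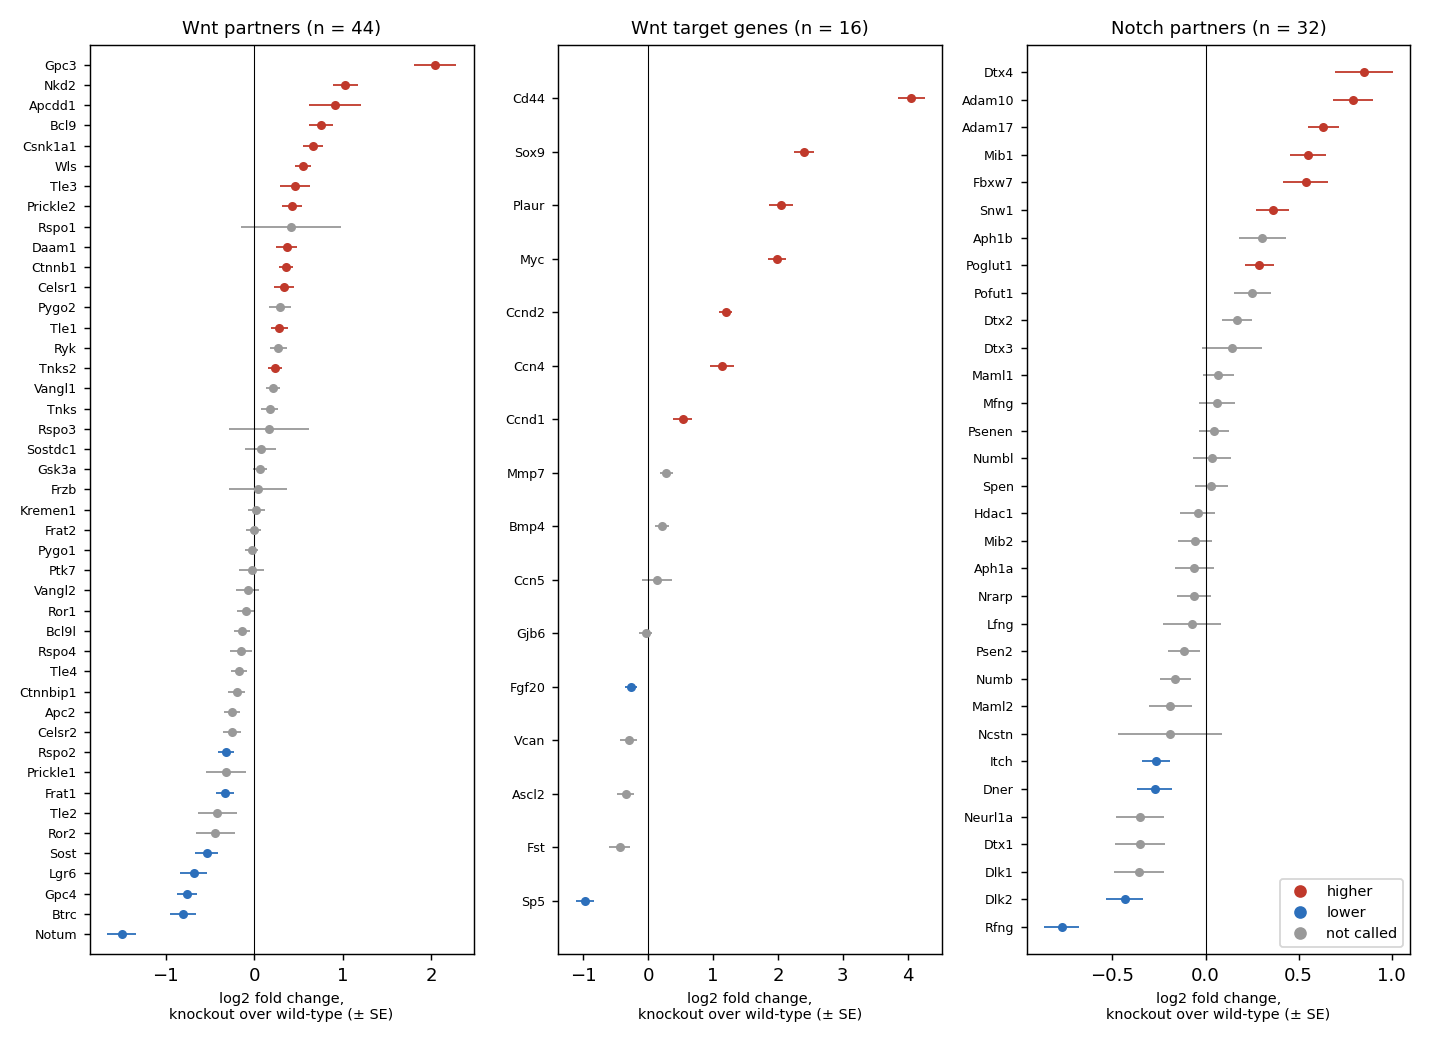
Log2 fold change with SE (knockout over wild-type) of 44 Wnt partners, 16 Wnt target genes and 32 Notch partners, coloured by call (red higher, blue lower, grey not called). Gpc3 and Notum lie at the ends of the Wnt partners, Cd44 and Sp5 at the ends of the targets, and Dtx4 and Rfng at the ends of the Notch partners; the horizontal scales differ.

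Markers of cell types that make these genes moved in the same samples. Over all genes 21.6% were higher and 27.7% lower. Of 15 fibroblast and matrix markers, 10 were higher and limma called 0 lower, also at an unadjusted p under 0.05 (median log2 fold change 1.30), with a summed linear level of 12907 to 21891 in knockout and 5044 to 6398 in wild-type samples. Wnt5a and the Sfrp genes are also made by stromal cells. Of 13 proximal tubule markers 12 were lower (median -1.53, summed level 47422 to 52300 in knockout and 123088 to 133535 in wild-type samples). Of 9 loop and distal tubule markers 8 were lower (24961 to 33119 in knockout and 58939 to 68037 in wild-type samples), and of 11 collecting duct markers 5 were lower and 1 higher (5033 to 6815 in knockout and 8077 to 9604 in wild-type samples). Of the 6 general epithelial markers 5 were higher (21368 to 21834 in knockout and 13956 to 15484 in wild-type samples). RMA values lay above 0 for every gene on these arrays and carry no detection call. Marker values therefore cannot show whether a cell type was present or absent. The part of these shifts in the Wnt and Notch values was not tested.

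The 3 genes that share only a prefix were Dkkl1, a sperm protein gene (log2 fold change -0.41, adjusted p = 0.00628), Fzd10os, a transcript opposite Fzd10 (-0.48, adjusted p = 0.0144), and Jagn1, a gene of the secretory pathway (0.08, adjusted p = 0.505). The first and second were lower with no overlap of the groups, and Jagn1 was not called.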

How the data were processed

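The authors deposited 1 table of RMA values on the log2 scale (45101 probe sets, 6 arrays); the submitters' processing notes name RMA, and the values (2.90 to 14.8, array medians 6.20 to 6.25) show a log2 scale. Which software and chip definition made them is not stated there. Of 34945 probe sets with exactly 1 gene in the platform annotation, which can be old, 34741 carried a current RefSeq symbol (GRCm38.p6), and 204 kept the annotation's.

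For each of 18193 genes the probe set with the highest mean went into limma 3.58.1 in R 4.3.3 (lmFit, then eBayes; two-sided; no covariate), with Benjamini-Hochberg adjustment over every gene and a threshold of 0.05. No dim gene was removed. Members, lists and the rule for named genes (12 Wnt and 8 Notch members with the largest change among called members with separate groups, the most changed called member of each role and direction, 7 feedback or target genes, and 3 genes per direction of each list) were chosen with earlier results of these data known. The fit was tested on simulated data. Alternatives were another probe set rule, a signal filter, prior, scaling, array weights, a replicate block, arrays left out and a stricter threshold. Figures were drawn with matplotlib 3.10.9 (Python 3.11.15). Precision is limited by 3 samples per group.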

Additional observations from a re-analysis of the deposited data

How the results depend on the processing

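Leaving out each array in turn gave 5 to 9 higher and 11 to 17 lower Wnt members (7 and 18 with all arrays), 4 to 5 higher and 1 to 8 lower Notch members (4 and 9), 12 to 19 Wnt partners (20), 8 to 13 Notch partners (11) and 7 to 9 Wnt targets (9). At a threshold of 0.01 there were 4 higher and 9 lower Wnt members, 1 lower Notch member, 10 Wnt partners and 7 Notch partners. Tested on the brighter genes alone (median signal and above), there were 4 lower Wnt members, 1 lower Notch member and 5 Wnt targets. These drops follow from the stricter threshold or from testing fewer genes. With the mean of all probe sets 2 Notch members were higher. The median log2 fold change of Wnt members (-0.23) was 0.016 among brighter genes, -0.30 with arrays centred on their median, -0.11 after quantile normalisation and -0.23 to -0.15 with 1 array left out. That of Notch members (-0.22) was 0.40 among brighter genes, -0.29 with centred arrays and -0.26 to -0.17 with 1 array left out. Centring gave 7 higher and 27 lower Wnt and 4 higher and 10 lower Notch members, and 67.0% of calls over all genes were then lower, against 56.2%. The cause of these shifts was not tested.

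Among the uncalled feedback and target genes followed through every setting, Axin2, Nkd1 and Heyl changed sign. Axin2 was 0.0195 after quantile normalisation, 0.0095 with array weights and -0.16 to 0.0463 with 1 array left out. Nkd1 was 0.003 after quantile normalisation and -0.18 to 0.0224 with 1 array left out. Heyl was 0.13 with the mean of probe sets, 0.0317 after quantile normalisation and -0.0515 to 0.0349 with 1 array left out. With a replicate block 4 Notch members were lower, against 9 without it, and 17 Wnt members were lower. Of the members picked by the rule for named genes, Hey2 and Hey1 lost their calls (adjusted p = 0.0678 and 0.0654). Losses among the remaining members were not followed by gene. Samples that share a number did not deviate together (correlations of -0.10, -0.13 and -0.12), so the numbers were not taken as pairs. Counting the 3 prefix-only genes, added after seeing the data, gave 20 lower Wnt members and changed no other count. RMA values carry no detection call, which limits what dim members can show.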
